A study of Rattus norvegicus with 69 samples.

Results

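Sgk1, Gpd1, Klf9 and Cebpb are 4 genes known to be induced by glucocorticoids, the adrenal stress steroids. They were followed in hippocampal area CA1 of rats that were sleep deprived (SD) or exposed to the stress of a new environment (NES). The members were found by gene symbol in the array's probe annotation, which gave 6 of the 7018 probe sets with 1 symbol and 4 of the 4737 genes these name. RNA of 1 CA1 block was measured on 1 Affymetrix array for each of 69 young adult male Fisher 344 rats. Home cage (HC) controls numbered 17, of which 5 were in cohort 1 and 12 in cohort 2. SD animals stood on platforms over water, in pairs of cage mates, for 24 hours (24SD, 8 animals in each cohort) or for 72 hours (72SD, 8 in cohort 1 and 12 in cohort 2). NES animals were kept in the same chambers with a grid over the platforms, so that sleep was possible, for 24 hours (24NES, 10 animals) or 72 hours (72NES, 6 animals), all in cohort 1. NES therefore shared the 5 HC animals of cohort 1 with SD. HC and SD rats of cohort 1 had also been trained in active avoidance, which the paper does not state for NES rats. The labels do not say which animals shared a cage or chamber, so p-values take each animal as independent.

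Corticosterone, the main glucocorticoid of the rat, reaches the brain and binds the glucocorticoid and mineralocorticoid receptors, both abundant in the hippocampus. The bound receptor enters the nucleus, binds DNA at glucocorticoid response elements, which often lie far from the start of the gene, and raises transcription of its targets within hours. The members act at different steps after that. Sgk1 encodes a serum and glucocorticoid regulated kinase that acts on ion channels and transporters, and Gpd1 encodes the cytosolic glycerol-3-phosphate dehydrogenase, which in brain is found mainly in oligodendrocytes. Klf9 is a zinc finger transcription factor of the Krüppel-like family, and Cebpb is a leucine zipper transcription factor of acute responses.

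Promoters were held in the RefSeq table (rat build GRCr8) for Klf9, Cebpb and Sgk1, with 250 bases before and 50 after each start. Gpd1 is named only. The promoters of both transcription factors and the most GC-rich of the 3 Sgk1 promoters are shown, since these are the windows in which the receptor's motif was searched. Capitals mark matches to TGACG, the core of the cAMP response element, on either strand, of which the Sgk1 promoters hold none.
Klf9, chr1:230126396-230126695, plus strand: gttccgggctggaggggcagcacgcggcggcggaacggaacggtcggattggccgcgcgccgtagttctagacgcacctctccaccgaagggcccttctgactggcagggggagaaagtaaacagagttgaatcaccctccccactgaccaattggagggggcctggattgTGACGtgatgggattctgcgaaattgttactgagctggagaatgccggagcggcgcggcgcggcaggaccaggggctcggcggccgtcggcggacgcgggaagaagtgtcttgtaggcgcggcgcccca
Cebpb, chr3:176816755-176817054, plus strand: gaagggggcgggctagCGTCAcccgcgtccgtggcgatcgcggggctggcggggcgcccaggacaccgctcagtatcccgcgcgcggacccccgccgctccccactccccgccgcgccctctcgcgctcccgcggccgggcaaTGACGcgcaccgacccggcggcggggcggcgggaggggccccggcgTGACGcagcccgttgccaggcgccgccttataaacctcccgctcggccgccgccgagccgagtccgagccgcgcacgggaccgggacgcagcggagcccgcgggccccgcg
Sgk1, chr1:24804782-24805081, minus strand: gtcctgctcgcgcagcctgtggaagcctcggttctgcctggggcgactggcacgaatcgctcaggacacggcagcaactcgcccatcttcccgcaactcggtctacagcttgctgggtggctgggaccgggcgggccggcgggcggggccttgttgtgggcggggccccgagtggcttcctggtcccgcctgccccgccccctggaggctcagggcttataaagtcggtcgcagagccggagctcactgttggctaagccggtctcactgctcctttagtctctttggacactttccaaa

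The full response element was searched as GNACANNNTGTNC on both strands, and its right arm as TGTTCT, which can overlap it. Neither was found in the Klf9, Cebpb or any of the 3 Sgk1 windows. Among all 33469 promoters in the table, 0.439% held the full element and 20.7% the arm. The core TGACG was found 3 times in the Cebpb promoter and 1 time in that of Klf9, and 21.2% of all promoters held it. The E-box CACGTG, which 6.42% of all promoters held, was not found in these 5 windows. A match or its lack says only which letters stand in a window.

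Signals were scaled array by array, and their median lay between 400.5 and 484.9 on the 69 arrays. The 3' to 5' ratio of the GAPDH controls, a sign of RNA length, was between 0.916 and 1.26. That of the beta-actin controls was spread more widely, from 0.90 in HC animal 3 to 1.76 in 72NES animal 71. The cohorts differed in many genes: 34.6% of the 2696 genes tested passed the adjusted test between the HC animals of cohort 1 and those of cohort 2, so levels are given by cohort. Of the 5 markers of CA1 pyramidal neurons measured, 0 were listed at 0 on any array. Only 45 values in the data of all 8799 probe sets were 0, so this does not show that the markers were present. Their summed signal ran from 25579 to 39129 over the 69 arrays. In bulk tissue, fewer cells of a type and less RNA per cell cannot be told apart. In what follows, levels and differences are on the log2 signal scale, ± is the SD for a level and the standard error for a difference, and adjusted p-values are those of limma with Benjamini-Hochberg adjustment over the 2696 genes.

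The brightest probe set of each member was tested, and all 4 were in the upper 50% of signals. SD against HC was tested over 53 animals of both cohorts with cohort as a term. In the F-test over both durations, 0 of 4 members passed the adjusted test, against 0.371% of all genes tested, and Gpd1, Cebpb and Klf9 had an unadjusted p under 0.05, against 12.4%. At 24 hours Gpd1 passed, where 1.45% of genes did, and all 4 members had an unadjusted p under 0.05, where 19.2% of genes did. At 72 hours 0 members passed, where 0.0371% of genes did, and Gpd1 had an unadjusted p under 0.05, where 8.49% did. For the mean of both durations Gpd1 passed, where 1% of genes did, and Gpd1 and Cebpb had an unadjusted p under 0.05, where 17.8% did.

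**Figure D1:**
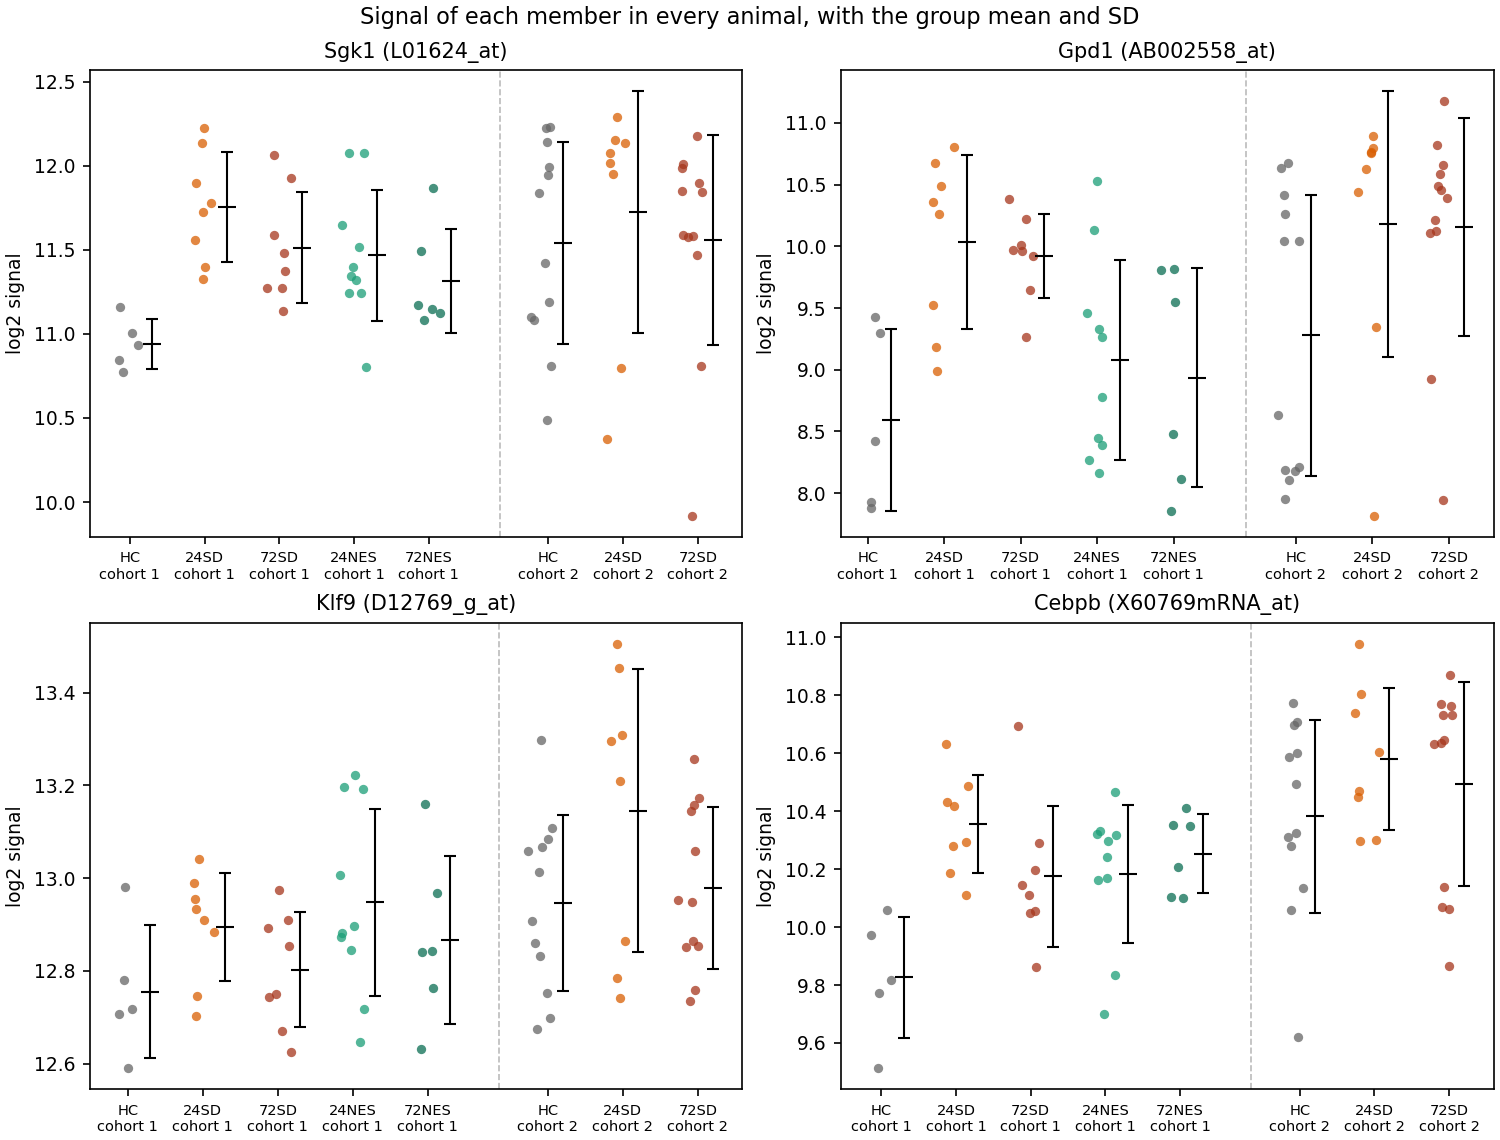
Log2 signal (vertical axis) of the 4 members in each animal by group and cohort (horizontal axis), 1 dot per animal, with black bars for the mean ± SD. Gpd1 in HC of cohort 2 fell in separate sets of 6 animals with no value between 8.64 and 10.05, and all 8 24SD animals of cohort 1 lay above all 5 HC animals of that cohort in Sgk1 and in Cebpb.

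Gpd1 had the largest difference of the members in SD. In the 5 HC animals of cohort 1 its level was 7.88, 7.93, 8.42, 9.30 and 9.43. In 24SD of that cohort it ran from 8.99 over a median of 10.31 to 10.80, and in 72SD from 9.27 over 9.97 to 10.38. All 16 SD animals of cohort 1 were above the HC mean, and 6 of the 8 24SD and 7 of the 8 72SD animals were above the highest HC animal. In cohort 2 HC ran from 7.95 over 9.34 to 10.67, 24SD from 7.82 over 10.69 to 10.90, and 72SD from 7.95 over 10.42 to 11.18. There the groups overlapped over nearly their whole range, with 4 of 8 24SD and 2 of 12 72SD animals above the highest HC animal, and 1 of each below the lowest.

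Over both cohorts Gpd1 rose by 1.10 ± 0.30 at 24 hours, 2.14-fold (adjusted p = 0.0411). At 72 hours the difference was 1.02 ± 0.28 (adjusted p = 0.144), and 72SD differed from 24SD by -0.08 ± 0.28, with a 95% interval from -0.64 to 0.49. The mean of both durations rose by 1.06 ± 0.25 (adjusted p = 0.0193), 2.09-fold with an interval from 1.48 to 2.95. That call held with each of the 53 animals left out in turn (adjusted p between 0.00248 and 0.0472), and was lost with no cohort term (1.01, adjusted p = 0.0578) and in cohort 2 alone (0.89, adjusted p = 0.312). The call at 24 hours was lost without any 1 of 22 animals (adjusted p up to 0.0902), with no cohort term (1.03, adjusted p = 0.182), in cohort 2 alone (0.90, adjusted p = 0.470) and with every probe set other than controls tested (1.10, adjusted p = 0.0860).

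Gpd1 went with the 3' to 5' ratio of the beta-actin controls over the 37 animals of cohort 1, after group means were removed (Pearson's r = -0.61, permutation p = 0.000480, adjusted p = 0.00768 over 16 relations of members with array measures). Spearman's rho was -0.64 (permutation p = 0.000320), and r was -0.59 (permutation p = 0.000560) without the 2 animals farthest from the median ratio. With that ratio as a covariate, an alternative added after the data were seen, the difference was 1.21 at 24 hours (adjusted p = 0.0528) and 1.14 for the mean of both durations (adjusted p = 0.0145). Oligodendrocyte markers were measured for 7 of the 12 listed, and 0 of 7 passed the adjusted test in SD. None of the 7 was at 0 on any array, but zeros were rare in the data and this does not show presence. Their summed signal ran from 71703 to 86887 in HC and from 72768 to 105845 in 24SD of cohort 1, and from 67734 to 100410 and from 79284 to 94979 in cohort 2.

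Sgk1 had a larger difference from HC in cohort 1 than in cohort 2, though the test between cohorts, given below with those of the other members, did not pass. Its 5 HC levels in cohort 1 were 10.77, 10.84, 10.93, 11.00 and 11.16. The 24SD animals of that cohort ran from 11.32 over a median of 11.75 to 12.22 and the 72SD animals from 11.13 over 11.43 to 12.06. All 8 24SD animals and 7 of 8 72SD animals were above the highest HC animal. In cohort 2 HC ran from 10.49 over 11.63 to 12.23, 24SD from 10.37 over 12.05 to 12.29 and 72SD from 9.92 over 11.72 to 12.18, and the groups overlapped throughout.

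In cohort 1 alone Sgk1 rose by 0.81 ± 0.16 at 24 hours, 1.76-fold (adjusted p = 0.0108), and was 0.57 ± 0.16 at 72 hours (adjusted p = 0.114). In cohort 2 alone the differences were 0.18 ± 0.27 and 0.02 ± 0.24. With every probe set other than controls tested, 0 members passed at 24 hours in cohort 1, so this call and those of Gpd1 and Cebpb there were lost. Over both cohorts Sgk1 was 0.41 ± 0.18 at 24 hours (adjusted p = 0.200) and 0.20 ± 0.17 at 72 hours (adjusted p = 0.739).

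Cebpb had its lowest level in HC of cohort 1. The 5 HC animals there were at 9.51, 9.77, 9.82, 9.97 and 10.06, and the 8 24SD animals ran from 10.11 over a median of 10.35 to 10.63, with no overlap. The 72SD animals ran from 9.86 over 10.13 to 10.69, and 5 of 8 were above the highest HC animal. In cohort 2 HC ran from 9.62 over 10.41 to 10.77, 24SD from 10.30 over 10.54 to 10.98 and 72SD from 9.87 over 10.64 to 10.87, and the groups overlapped.

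Cebpb rose by 0.53 ± 0.12 at 24 hours in cohort 1 alone (adjusted p = 0.0296), and was 0.20 ± 0.14 in cohort 2 alone and 0.32 ± 0.098 over both (adjusted p = 0.0735). At 72 hours it was 0.35 ± 0.12 in cohort 1 and 0.11 ± 0.13 in cohort 2. HC of cohort 1 was 0.56 ± 0.15 below HC of cohort 2 (adjusted p = 0.00258). A second, dimmer probe set (S77528cds_s_at, at the 39.0 percentile of mean signals) was 0.69 ± 0.18 at 24 hours over both cohorts and 1.02 ± 0.23 in cohort 1 alone, with adjusted p of 0.0683 and 0.0806 over every probe set other than controls. In cohort 1 its 5 HC animals ran from 7.00 to 7.24 and its 8 24SD animals from 7.75 to 8.73, again with no overlap. There 6 of 8 72SD and 4 of 6 72NES animals were above the highest HC animal, and 2 and 1 were below the lowest. Within groups the 2 Cebpb probe sets went together over 69 animals (Pearson's r = 0.61, permutation p = 1e-05) and in cohort 2 (r = 0.84, permutation p = 1e-05). In cohort 1 this was not shown (r = 0.25, permutation p = 0.149, n = 37).

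Klf9 was the brightest member, and over both cohorts its main probe set had the smallest differences from HC. On its main probe set (D12769_g_at) the 5 HC animals of cohort 1 were at 12.59, 12.71, 12.72, 12.78 and 12.98, the 24SD animals ran from 12.70 over 12.92 to 13.04 and the 72SD animals from 12.62 over 12.80 to 12.98. In cohort 2 HC ran from 12.67 over 12.96 to 13.30, 24SD from 12.74 over 13.25 to 13.51 and 72SD from 12.73 over 12.95 to 13.26. The groups overlapped in both cohorts. The difference was 0.17 ± 0.066 at 24 hours (adjusted p = 0.141) and 0.04 ± 0.062 at 72 hours, with an interval at 72 hours from -0.08 to 0.16. Klf9 went with the array's median signal over 69 animals (Pearson's r = -0.33, permutation p = 0.00608, adjusted p = 0.0486; Spearman's rho = -0.31, permutation p = 0.0111; r = -0.33 and permutation p = 0.00499 without the 2 farthest animals), and the part of that in its difference was not tested.

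The other Klf9 probe set (D12769_at) gave another order of groups. It was highest in HC of cohort 1, at 11.18 ± 0.17 (SD, n = 5), and lowest in HC of cohort 2, at 10.60 ± 0.30 (SD, n = 12). HC of cohort 1 was higher by 0.58 ± 0.12 (adjusted p = 0.000389 over every probe set other than controls), while the main probe set was 0.19 ± 0.10 lower in HC of cohort 1 (adjusted p = 0.137). In cohort 1 the 6 72NES animals (10.53 to 10.89) and 7 of the 8 72SD animals were below the lowest of the 5 HC animals (11.00). The differences were -0.49 ± 0.14 at 72NES (adjusted p = 0.837) and -0.27 ± 0.084 at 72SD (adjusted p = 0.355). In cohort 2 the same probe set was 0.31 ± 0.12 above HC at 24SD (adjusted p = 0.472). Within groups the 2 Klf9 probe sets went together over 69 animals (Pearson's r = 0.74, Spearman's rho = 0.74, permutation p = 1e-05 for both, the smallest these permutations give; r = 0.71 and permutation p = 1e-05 without the 2 farthest animals).

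The cohorts were then set side by side. In cohort 1 alone Gpd1 and Sgk1 passed the F-test over both durations, where 0.482% of genes did, and Gpd1, Sgk1 and Cebpb passed at 24 hours, where 0.853% did. In cohort 2 alone 0 members passed the F-test by limma, where 0% of genes did; 0 had an unadjusted p under 0.05, where 7.64% did. The difference itself, a group by cohort interaction, passed for 0 of 4 members (0.185% of genes) and had an unadjusted p under 0.05 for 0 of 4 (7.38% of genes). The SD mean changed by 0.59 ± 0.32 more in cohort 1 than in cohort 2 for Sgk1, with an interval from -0.06 to 1.24, and by 0.50 ± 0.53 more for Gpd1, from -0.57 to 1.57. A smaller response in cohort 2 was thus not shown by a test. Of the 22 animals that ended the Gpd1 call at 24 hours when left out, 10 were HC. The count of 3 members at 24 hours in cohort 1 fell to 1 without HC animal 1, 2 or 4 or without 24SD animal 23.

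Blood markers differed between groups of cohort 1. All 4 measured had lower means in 24SD than in HC there, with a median difference of -0.35. Of these, 3 had an unadjusted p under 0.05, as did 14.2% of all genes. At 24NES the median was -0.43. Their summed signal ran from 16219 to 18424 in the 5 HC animals, from 8603 to 16559 in 24SD and from 7129 to 16618 in 24NES. In cohort 2 it ran from 10081 to 18093 in HC and from 12839 to 19574 in 24SD. There 3 of 4 markers were higher in 24SD than in HC, with a median difference of 0.21. Of the 4, 2 were higher with an unadjusted p under 0.05, a share not counted over all genes there. Their part in the members' differences was not tested.

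**Figure D2:**
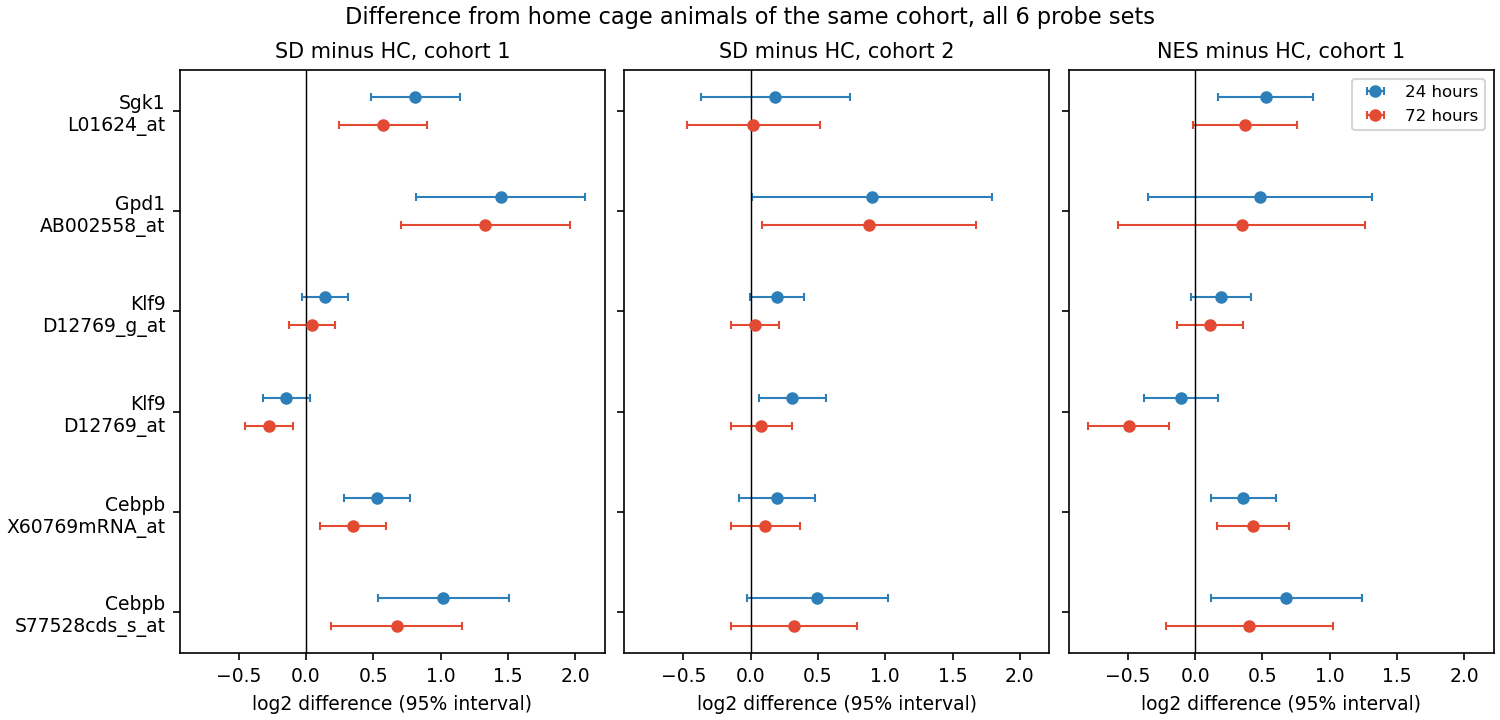
Log2 difference from HC animals of the same cohort (horizontal axis, with 95% intervals) for the 6 probe sets of the members (vertical axis), at 24 hours in blue and 72 hours in red. Gpd1 had a difference of 1.44 at 24SD in cohort 1 and 0.90 in cohort 2, Sgk1 had 0.81 and 0.18, and the probe set D12769_at of Klf9 lay on the other side of 0 from D12769_g_at in cohort 1 and in NES.

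NES was set beside SD, since NES animals met the same chamber but could sleep. The paper states avoidance training for HC and SD rats of cohort 1 but not for NES rats. It reports that no training effect was seen in its stress and array measures, with the data not shown. If NES rats were untrained, training cannot be told apart from procedure in their comparisons with HC and SD. Against HC of cohort 1, 0 of 4 members passed the adjusted test by limma in the F-test over 21 animals (0% of genes), at 24NES (0.445%) or at 72NES (0%). With unadjusted p under 0.05, Sgk1 and Cebpb were counted in the F-test (11.4% of genes) and at 24NES (15.1%), and Cebpb at 72NES (5.97%). The members' levels were nonetheless above the HC range in many NES animals.

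Sgk1 ran from 10.80 over a median of 11.37 to 12.07 in 24NES, with 9 of 10 animals above the highest HC animal, and from 11.09 over 11.16 to 11.87 in 72NES, with 3 of 6 above it. The differences were 0.52 ± 0.17 (adjusted p = 0.153) and 0.37 ± 0.19 (adjusted p = 0.825). Cebpb ran from 9.70 over 10.27 to 10.47 in 24NES and from 10.10 over 10.28 to 10.41 in 72NES, with 8 of 10 and 6 of 6 animals above the HC range. Its differences were 0.36 ± 0.12 (adjusted p = 0.153) and 0.43 ± 0.13 (adjusted p = 0.585). Klf9 was 0.19 ± 0.11 at 24NES and 0.11 ± 0.12 at 72NES on its main probe set. There 4 of 10 and 1 of 6 animals were above the HC range. On its other probe set all 6 72NES animals were below that range.

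Gpd1 was spread widely in NES. It ran from 8.17 over 9.02 to 10.53 in 24NES and from 7.86 over 9.01 to 9.81 in 72NES, and 3 of 10 and 3 of 6 animals were above the HC range. The differences from HC were 0.49 ± 0.40 and 0.35 ± 0.44, with intervals from -0.35 to 1.32 and from -0.57 to 1.26. With the beta-actin ratio as a covariate they were 0.85 (adjusted p = 0.284) and 0.54 (adjusted p = 0.956), each over 1.5 times the value without it. Left-out arrays moved the 24NES value less far, to between 0.31 and 0.69, and it was down to 0.31 without HC animal 1 or 2. They moved the 72NES value as far, to between 0.17 and 0.56 without HC animal 1, 2, 3 or 5 or 72NES animal 69, 71, 72 or 73.

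A direct test of SD against NES, at equal exposure time, used the 37 animals of cohort 1 and has the same limit from training. Of the members, 0 of 4 passed the adjusted test by limma at 24 hours (0.0371% of genes) or at 72 hours (0% of genes), and Gpd1 had an unadjusted p under 0.05 at both (6.08% and 7.49% of genes). Gpd1 was 0.96 ± 0.32 higher in 24SD than in 24NES (p = 0.00439, adjusted p = 0.593) and 0.99 ± 0.36 higher in 72SD than in 72NES (p = 0.00940, adjusted p = 0.565). For the SD mean against the NES mean, a contrast added after the data were seen, Gpd1 was 0.97 ± 0.24 higher (adjusted p = 0.0817), and 0 of 4 members passed (0.0742% of genes; Gpd1 and Sgk1 had an unadjusted p under 0.05, as did 7.68% of genes).

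For the other members the differences between SD and NES were smaller. Sgk1 was 0.29 ± 0.15 higher in 24SD than in 24NES, with an interval from -0.01 to 0.59, and 0.20 ± 0.17 higher at 72 hours, from -0.15 to 0.54. Cebpb differed by 0.17 ± 0.10 at 24 hours, from -0.03 to 0.37, and by -0.08 ± 0.11 at 72 hours, from -0.31 to 0.15. Klf9 differed by -0.05 ± 0.080, from -0.22 to 0.11, and by -0.07 ± 0.092, from -0.25 to 0.12. A test that was not passed does not show that the procedures acted alike.

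Between 24SD and 72SD, 0 of 4 members passed the adjusted test by limma, as did 0% of all genes, and Klf9 had an unadjusted p under 0.05, as did 3.41% of genes. The difference of 72SD from 24SD was -0.13 ± 0.063 for Klf9, -0.14 ± 0.094 for Cebpb, -0.22 ± 0.17 for Sgk1 and -0.08 ± 0.28 for Gpd1.

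When the 8 groups of animals were ordered by mean level, HC of cohort 1 was lowest for all 4 main probe sets. The step up to the next group was larger than the SD of both groups for Sgk1 (0.37, to 72NES) and Cebpb (0.35, to 72SD), and no other step between neighbours was on these 4 probe sets. 24SD of cohort 2 stood highest for Gpd1 (10.18 ± 1.08, SD, n = 8), Klf9 (13.15 ± 0.30) and Cebpb (10.58 ± 0.25), and 24SD of cohort 1 for Sgk1 (11.75 ± 0.33).

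Animals of the same group differed widely in Gpd1 and Sgk1 in cohort 2. Among its 12 HC animals, 6 had Gpd1 between 7.95 and 8.64 and the other 6 between 10.05 and 10.67, a gap of 1.41 with no animal in it. The 6 lowest in Gpd1 (animals 7, 8, 9, 10, 15 and 16) were also the 6 lowest in Sgk1, at 10.49 to 11.42, against 11.84 to 12.23 in the others. For Klf9 and for Cebpb, 3 of the 6 lowest were the same animals. Among the SD animals of cohort 2, 24SD animals 30 (9.35 in Gpd1 and 10.37 in Sgk1) and 31 (7.82 and 10.80) and 72SD animals 52 (7.95 and 9.92) and 53 (8.92 and 10.81) were the lowest of their group in both genes.

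**Figure D3:**
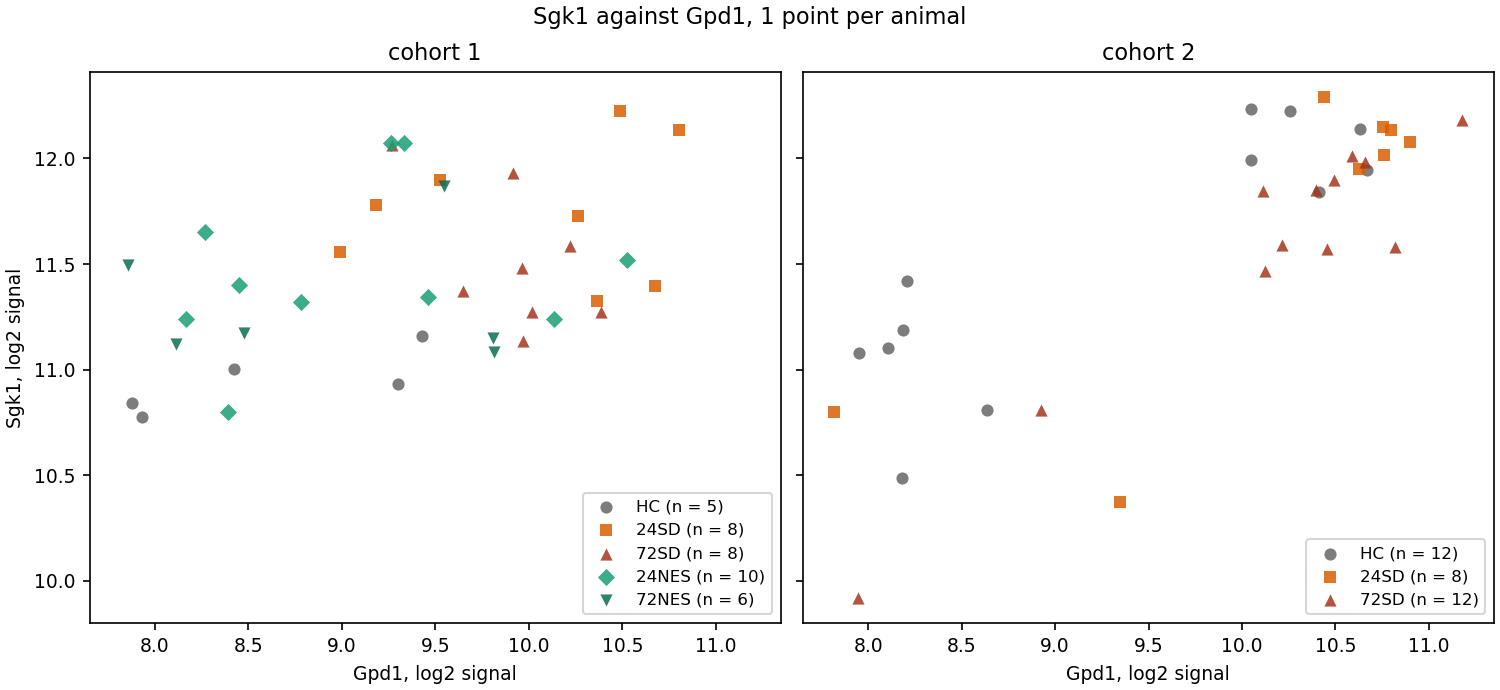
Sgk1 (vertical axis) against Gpd1 (horizontal axis), both as log2 signal, 1 point per animal, for cohort 1 at left and cohort 2 at right. In cohort 2 the 6 HC animals at a Gpd1 of 8.64 or less and 4 SD animals lie lower in both genes than the rest. In Sgk1 they nearly meet the rest, with HC animal 10 at 11.42 and 72SD animal 50 at 11.47. Cohort 1 has no such separation.

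Since Gpd1 fell in separate sets in cohort 2, its relation to the other members was tested in cohort 1 alone, and within each set of 6 HC animals of cohort 2. In cohort 1, over 37 animals with group means removed, Gpd1 and Sgk1 had r = 0.11 (rho = 0.04, permutation p = 0.550 and 0.808). Gpd1 and Klf9 had r = -0.03 (rho = -0.06, permutation p = 0.870 and 0.745), and Gpd1 and Cebpb had r = 0.09 (rho = 0.05, permutation p = 0.609 and 0.797). Within the 6 HC animals below the gap, Gpd1 and Sgk1 had r = -0.28 (exact permutation p = 0.593), and within the 6 above it r = -0.34 (exact permutation p = 0.478). With 6 animals a set and a narrowed range of Gpd1, these values say little about a relation within the sets, and the SD animals of cohort 2 were not tested in this way. By rank of r in cohort 2, Sgk1 was the gene nearest to Gpd1 and Gpd1 the gene nearest to Sgk1, of all genes tested, in animals that fell in separate sets.

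For the other pairs all 69 animals were used. Sgk1 and Klf9 had r = 0.42 (permutation p = 0.00233, adjusted p = 0.0140 over 6 pairs) and rho = 0.32 (permutation p = 0.0129, adjusted p = 0.0772), and r was 0.31 (permutation p = 0.0220) without the 2 animals farthest from the median of Sgk1. The r was 0.55 in cohort 2 (permutation p = 0.00158) and 0.10 in cohort 1 (permutation p = 0.600), and the difference between cohorts was not tested. The 12 HC animals of cohort 2 are in it, whose Sgk1 lay in the same sets as their Gpd1. Sgk1 and Cebpb had r = 0.31 (permutation p = 0.0269, adjusted p = 0.0807) and rho = 0.28 (permutation p = 0.0325), which lost its p without the 2 farthest animals (r = 0.26, permutation p = 0.0613). It was 0.44 in cohort 1 (permutation p = 0.0127) and 0.26 in cohort 2 (permutation p = 0.156). Klf9 and Cebpb had r = 0.09 (permutation p = 0.476) and rho = 0.08 (permutation p = 0.556).

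The genes whose level went most closely with a member's within groups, members left out, were taken from the 2696 tested by Pearson's r, as a description. For Sgk1 they were Errfi1, a feedback inhibitor of the EGF receptor (r = 0.69 over 69 animals), Fn1, the matrix protein fibronectin (0.65), and Nfkbia, the inhibitor of NF-kappaB (0.63). Errfi1 and Nfkbia are also on the list of glucocorticoid-induced genes. In cohort 1 alone the r of Errfi1, Fn1 and Nfkbia was 0.62, 0.55 and 0.45, at ranks 21, 86 and 262 of all other genes tested. They were thus not the nearest to Sgk1 there. In cohort 2, where Sgk1 of the HC animals lay in the same sets as their Gpd1, the ranks were 2, 5 and 3. For Gpd1 they were Kcnj10, a potassium channel of glia, Errfi1 and Crhbp, the binding protein of corticotropin-releasing hormone. In cohort 1 alone these had r = 0.60, 0.06 and 0.18, and no r is given for cohort 2, where Gpd1 fell in separate sets. Kcnj10 fell in 24SD by 0.69 ± 0.19 (adjusted p = 0.0476), opposite to Gpd1.

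For Klf9 they were Bpnt1, a bisphosphate nucleotidase (r = 0.77), Plekha1 (0.59) and Psma1, a subunit of the proteasome (0.56). For Cebpb they were Tle1, a transcriptional corepressor (0.76), Rpn1, a subunit of the oligosaccharyltransferase (0.61), and Pkia, an inhibitor of protein kinase A (0.58). Bpnt1 and Tle1 were the nearest to Klf9 and to Cebpb in each cohort, with r of 0.69 and 0.81 in cohort 1 and 0.81 and 0.74 in cohort 2. At 24SD Bpnt1 was 0.09 ± 0.065 (adjusted p = 0.430) and Tle1 was 0.22 ± 0.090 (adjusted p = 0.167).

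The members stood among a list of 36 genes known to be induced by glucocorticoids, of which 19 were on the array and 13 were tested. The list holds the members and was chosen with earlier results of these data known. Its counts beside all genes are therefore a description and no test of the list. In SD 11 of the 13 were higher and 2 lower. In the F-test 1 passed upward and 0 downward, where 0.371% of all genes passed. For the SD mean 3 were higher with an unadjusted p under 0.05 and 1 was lower, where 17.8% of all genes had such a p. The median of their SD means was 0.11, against -0.01 for all genes, of which 46.0% were higher. At 24 hours 2 of 13 passed, Gpd1 and Sult1a1, a sulfotransferase of phenols, where 1.45% of all genes did. Sult1a1, which is no member, was 0.63 ± 0.11 higher in 24SD than in 24NES (adjusted p = 0.00406). Dusp1, a phosphatase of MAP kinases, and Cebpd, a relative of Cebpb, were the 2 that were lower, at -0.26 and -0.06.

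In NES 9 of the 13 were higher and 4 lower, 0 passed by limma, and the median was 0.15, against -0.005 for all genes. In the NES mean 4 were higher with an unadjusted p under 0.05 and 1 was lower. Of all genes, 9.94% had such a p in the NES mean and 0% passed the adjusted test. Errfi1 was 0.39 ± 0.14 and Nfkbia 0.28 ± 0.14 in NES, and 0.14 ± 0.073 and 0.0049 ± 0.089 in SD. SD is over both cohorts here and NES over cohort 1, they share the 5 HC animals of cohort 1, and the values are set side by side only.

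**Figure D4:**
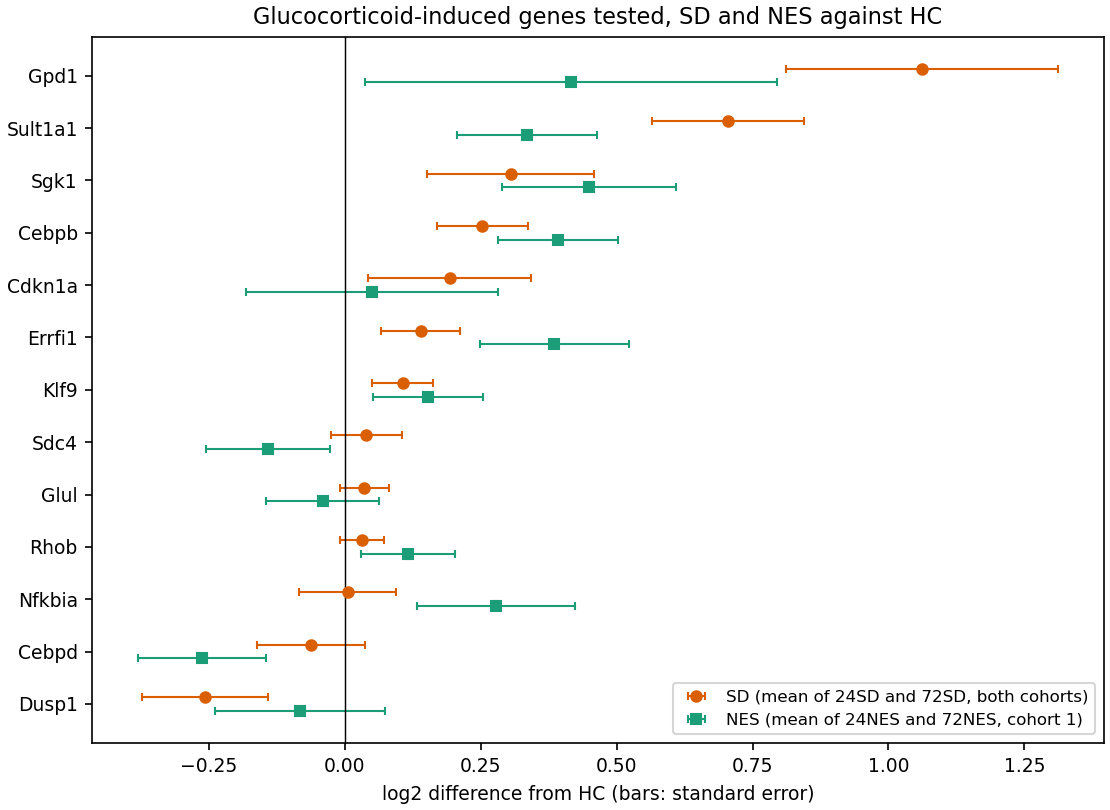
Log2 difference from HC (horizontal axis, bars for the standard error) of the 13 glucocorticoid-induced genes tested (vertical axis), for the mean of 24SD and 72SD over both cohorts (orange) and the mean of 24NES and 72NES in cohort 1 (green). Gpd1 and Sult1a1 had larger SD than NES values, at 1.06 and 0.42 for Gpd1, and Sgk1 and Cebpb had 0.30 and 0.25 in SD and 0.45 and 0.39 in NES, but 0.69 and 0.44 in SD of cohort 1 alone, the cohort of the NES animals.

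Upstream of the members, 5 of 14 genes of the receptor axis were tested. Hsd11b1, which regenerates active glucocorticoid inside cells, rose at 24SD by 0.22 ± 0.061 (adjusted p = 0.0476) over both cohorts. In cohort 1 alone it was 0.09 ± 0.076 at 24SD (adjusted p = 0.587) and -0.24 ± 0.11 at 24NES (adjusted p = 0.290), and in cohort 2 alone 0.30 ± 0.089 at 24SD (adjusted p = 0.255). Nr3c2, the mineralocorticoid receptor, was 0.13 in SD and 0.17 in NES, and Fkbp4, a receptor chaperone, was 0.05 and 0.12, with no adjusted test passed. Relatives of the members gave 9 genes tested of 19 listed, members included, of which 1, Gpd1, passed at 24SD, where 1.45% of all genes did. Of 10 genes induced by neuronal activity, 8 were lower in the SD mean and 7 higher in the NES mean, with medians of -0.11 and 0.14, and by limma 0 passed in either. Of the 10, 2 were lower with an unadjusted p under 0.05 in the SD mean, where 17.8% of all genes had such a p. In the NES mean 0 had one, against 9.94% of all genes. At 24SD 3 were lower with such a p (19.2% of all genes), and at 24NES 2 were higher and 1 lower (15.1%).

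Markers of other cells were counted in the same way. In the SD F-test and at 24SD over both cohorts, 0 of 7 astrocyte, 4 endothelial, 3 choroid plexus, 3 dentate granule cell, 4 CA1 pyramidal, 9 interneuron, 4 microglia and 4 blood markers tested passed by limma. In the SD F-test 1 dentate and 3 interneuron markers had an unadjusted p under 0.05, as did 12.4% of all genes. At 24SD 2 astrocyte, 1 dentate, 1 pyramidal, 3 interneuron and 1 microglia marker did, as did 19.2% of all genes. In cohort 1 alone the microglial receptor Cx3cr1, named after its values were seen, fell at 24SD by 0.50 ± 0.11 (adjusted p = 0.0237). In that comparison 0.853% of all genes passed. The 4 microglia markers did not move together there, with 2 higher and 2 lower and a median of -0.04. In cohort 2 alone 3 were higher and 1 lower at 24SD, and 0 passed.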

How the data were processed

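RNA from the CA1 block of each of 69 rats, taken after CO2 and decapitation, was extracted with TRIzol and hybridised as biotin-labelled cRNA. The deposited values are linear signal intensities that the authors made with MAS5 (version not given in the sources used here), scaled for each array. The study's own test, a 1-way ANOVA on signals standardized in each cohort, was run as an alternative, once on all values and once leaving out those more than 2 SD away from their group's mean. The number of arrays limits the precision.

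Intensities were set to at least 1 and taken to log2. Of 8799 probe sets, 59 controls, 308 with several symbols and 1426 with none were left out, and the brightest probe set of each gene in the upper 50% of mean signal was tested (2696 genes). Of the probe sets with 1 symbol, 99.7% matched RefSeq. Other probe sets of a member came from a fit over every probe set other than controls. limma 3.58.1 (R 4.3.3) was fitted with a cohort term for SD against HC, over cohort 1 for NES and for SD against NES, and with an interaction between cohorts, at a threshold of 0.05 after Benjamini-Hochberg adjustment. All tests were two-sided, and fits were tested on simulated data. Correlations used group-centred values and 100000 permutations within groups (Python 3.11.15, numpy 2.4.6, pandas 2.3.3, scipy 1.17.1, with matplotlib 3.10.9 for figures). Pairs with Gpd1 were planned over all arrays and were limited to cohort 1 once its separate sets were seen.

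Named genes were every probe set of the members, listed glucocorticoid-induced and receptor axis genes that passed in any comparison or had the 3 smallest p in the SD F-test, and the 3 genes most like each member. Dusp1, Cebpd, Errfi1 and Nfkbia among the list are named beyond that rule or through likeness. Members and lists were chosen with earlier results of these data known. Alternatives were quantile and median normalization, a floor of 50, other filters, robust variances, cohorts alone and left-out arrays. The mean contrast of SD against NES, the actin covariate and the left-out arrays other than HC of cohort 1 were added after the data were seen. Serum corticosterone was not analysed here.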

Additional observations from a re-analysis of the deposited data

Results flagged for a closer look

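On the dimmer Klf9 probe set (D12769_at), animal 19 of 24SD in cohort 1 stood apart above the other 7, at 11.29 against 11.09 for the nearest. It was the only one of 36 group and probe set combinations checked in which a sample's gap to its neighbour was that large for the group's range, and chance gives such a gap in about 1 in 20 groups.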

How the results depend on the processing

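All 240 values of the members' differences under other settings on the same probe sets kept their direction. On the other probe set of Klf9 the difference was -0.031 at 72SD, -0.10 at 24NES, -0.49 at 72NES and 0.22 for 72SD against 72NES, and on that of Cebpb it was 0.27 for 72SD against 72NES, all reversed. Members called at 24SD numbered 2 (Cebpb and Gpd1) with arrays centred on their median, 3 in cohort 1 alone, and 0 with every probe set tested, with no cohort term, in cohort 2 alone and with the actin ratio as a covariate. Gpd1 at 24SD was 1.10 (adjusted p = 0.0860), 1.03 (0.182), 0.90 (0.470) and 1.21 (0.0528) in those last 4 settings by limma. Testing every probe set also left 0 members at 24SD in cohort 1. For the SD mean the count was 0 with no cohort term, 3 in cohort 1 and 0 in cohort 2. In the F-test it was 2 in cohort 1, and by the 1-way ANOVA with values removed it was 1 (Gpd1) after adjustment. The study called genes at an unadjusted p of 0.05 or less. By that ANOVA all 4 members were under it with values removed (Sgk1 p = 0.00601, Gpd1 0.000323, Klf9 0.0119, Cebpb 0.00692). With all values kept they were too (0.0346, 0.000662, 0.0119 and 0.00971). The share of all genes under it was not counted, so these p-values do not set the members apart from other genes. In the limma F-test over both durations, 12.4% of all genes had an unadjusted p under 0.05. Of the glucocorticoid-induced list, the F-test called 0 with no cohort term, 3 in cohort 1, 0 in cohort 2 and 2 by the ANOVA with values removed, after adjustment. At 24SD it called 1 with every probe set, 1 with no cohort term, 4 in cohort 1, 0 in cohort 2 and 1 with the covariate. With 1 array left out, members called ran from 0 to 1 in the F-test (1, Gpd1, without 24SD animal 31, 72SD animal 52 or HC animal 6, 11, 13 or 14), from 0 to 1 at 24SD and from 1 to 3 at 24SD in cohort 1, and listed genes from 1 to 2 in the F-test and at 24SD. Gpd1 at 24SD ran from 1.02 to 1.29, and its call was lost without 24SD animal 18, 19, 20, 21, 23, 24, 28, 29, 32, 33, 34 or 35 or HC animal 1, 2, 4, 7, 8, 9, 10, 15, 16 or 17. At 72SD it passed in cohort 1 alone (1.33, adjusted p = 0.0388) and without 72SD animal 52 (1.15, adjusted p = 0.0379). Counts for NES, for SD against NES and between cohorts were 0 with each array left out. Correlations changed for Sgk1 and Klf9 in cohort 1 (0.10), for Sgk1 and Cebpb without the 2 farthest arrays (0.26) and in cohort 2 (0.26), and for Gpd1 and Klf9, whose sign turned with quantile normalization (0.027), median centring (0.0022) and without the 2 farthest (0.10). The cause of these changes was not tested. No paired analysis was possible because the subject numbers do not repeat between groups.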

Other observations

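The summed signal of 6 choroid plexus markers was 28383 in animal 32 of 24SD in cohort 2 and at most 4699 in each of the other 68 animals. Its part in the members' levels was not tested. Without that animal the Gpd1 difference at 24 hours was 1.06 (adjusted p = 0.0763 by limma).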
